A study of Mus musculus with 16 samples.

Results

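Ago2 regions deep inside long coding genes are the stretches of RNA bound by Ago2 that lie far from both ends of a large protein-coding gene. They were taken from the deposited comparison of Ago2 HITS-CLIP in mouse B cells. A region was counted when it overlapped, on its own strand, exactly 1 annotated gene span, when that gene was protein-coding with a span over 64 kb, and when the region's midpoint lay more than 10 kb from both gene ends. This gave 368292 regions, 38.3% of the 962084 regions kept from the series. They fell in 3337 host genes out of 3927 coding genes of that length, 91 of them predicted genes. No measured difference entered the choice. Most of such a gene interior is intron, but exons, introns and untranslated stretches were not told apart here.

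The cells were splenic B cells of strain C57B6L/J, kept in culture over 4 days. The medium held aCD40, which stands for an antibody against CD40, at 500 ng/ml; IL4 was at 25 ng/ml and the cytokine IL21 at 10 ng/ml. Such a mix imitates T cell help, under which B cells proliferate and change antibody class. The 16 samples are labelled KO or Flox (the usual short form for a loxP-flanked allele), in a series on targets of miR-221 and miR-222, with 4 RNA-seq and 4 Ago2 HITS-CLIP samples under each label. Both groups had the same culture, and the labels give neither the age of the mice nor a Cre driver. They do not say whether the replicates of a group came from separate mice.

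Ago2 is the protein that holds a mature miRNA and is guided by the miRNA's seed, bases 2 to 8, to matching sites in RNA. HITS-CLIP crosslinks protein to RNA, pulls the protein down and sequences the RNA attached to it. Target sites are best known in the 3′ untranslated regions of mature mRNA. Introns are copied into the primary transcript and removed by splicing in the nucleus, and some of them carry miRNA hairpins.

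The deposited comparison divides covered RNA into bins of 5 nt and gives each bin a difference between a pair of conditions and a hidden state. A region is a run of bins in 1 state: negative, positive or no difference. The value called the difference below is the mean over a region's bins, and the score is the authors' own value per region, which is 0 for every region without a difference. The table has 1 value per condition and does not name which condition is KO. The sign is therefore given no genotype, and CLIP values have no error and no test. Neighbouring regions of a gene come from the same pooled libraries and are not replicates.

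Some facts hold for all results. RNA-seq depth was 22947689 to 39616596 reads per library. The summed level of 6 B cell markers was 2456 to 3331 CPM (reads scaled to library depth) in KO and 3101 to 3310 CPM in Flox. That of 5 T cell markers was 116 to 156 CPM in KO and 124 to 150 CPM in Flox, of 5 myeloid markers at most 3.37 CPM, and of 3 stromal markers 24.4 to 28.6 CPM in KO and 17.2 to 22.2 CPM in Flox. In bulk samples, fewer cells of a type and less RNA per cell cannot be told apart. RNA-seq reads over the targeted hairpins are too few for a check of the groups: Mir222 had 0 in all 8 libraries, and Mir221 had 0 in the 4 KO libraries, 0 in Flox 1 and 2, 3 in Flox 3 and 1 in Flox 4.

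Few of the counted regions coincided with annotated miRNAs. The rule left out any region that also overlapped a second same-strand gene span, and the gene annotation lists miRNA genes such as Mir221 and Mir222. The count below therefore cannot show how many hairpins in gene interiors were bound. Over the whole series, without that rule, 108 hairpins held a region on their strand, against 26 when hairpin positions were shifted by 1000000 nt. Of 1005 hairpins in the RefSeq table (GRCm38.p6), 156 lie on the same strand deep in these long genes, and 3 of them held a counted region. The hairpins sit in Foxp1, a forkhead transcription factor of B cells, in Cnot1, the scaffold of the deadenylase that shortens poly(A) tails, and in Fam214a. Their mature arms are printed 5′ to 3′ with the seed in capitals, below both targeted miRNAs, to show which arm each region covers and that no seed is shared with miR-221-3p or miR-222-3p.
mmu-miR-221-3p: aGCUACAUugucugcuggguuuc
mmu-miR-222-3p: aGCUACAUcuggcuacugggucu
mmu-miR-12201-5p (Foxp1): uGGAAGGAugccucuugcaga
mmu-miR-12201-3p (Foxp1): uCUGCAGAggcuuccuuggcu
mmu-miR-7073-3p (Cnot1): aUAGCCUUuuccuccccaacag
mmu-miR-1970c-5p (Fam214a): uGUGUCACugggguuaugcuuug
mmu-miR-1970c-3p (Fam214a): aAGCCGGGccuagugacucucu

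The miR-221-3p and miR-222-3p seeds are identical, GCUACAU, and the seeds of the 5 intronic arms differ from it and from each other. In Foxp1, 259.6 kb from the annotated 3′ end, the region at chr6:99184960-99184984 (minus strand) covered all 21 nt of miR-12201-3p, was in the negative state with a difference of -0.149, and had a score of 6.7. The other arm, miR-12201-5p, lay wholly in the region at chr6:99184995-99185019, in the state without a difference (0.069). Each of these Foxp1 regions was the only 1 of its cluster, so the hairpin's arms were covered and the loop between them was not. In Fam214a a region of 70 nt at chr9:74966735-74966804 (plus strand) spanned both arms of miR-1970c, in the negative state with a difference of -0.145 and a score of 3.7. In Cnot1 the region at chr8:95753120-95753154 (minus strand) only touched miR-7073-3p, with 4 nt of overlap, in the state without a difference.

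Long genes often have further start sites inside the annotated span, and there the letters of a region can be read. Windows of 250 bases before to 50 after RefSeq gene starts overlapped 348 of the regions on the same strand, in 130 host genes, and 269 of these lay at a start of the host itself. Of the 208 regions wholly inside a window, 71 were in the negative state, 118 in the state without a difference and 19 in the positive state. None of these 208 regions, which hold 11460 nt, contained ATGTAGC, the site that pairs with the shared miR-221-3p and miR-222-3p seed, while 329 of all 32851 windows held it on the gene strand and 1.14% of windows held its reverse complement. At this number of letters the absence says only that the site is not in these stretches. Of regions at a start of their own host, the 6 hosts with the highest score are printed with the region in capitals and up to 20 flanking bases in lower case. Picked by score and lying at gene starts, they are examples and do not stand for gene interiors at large. Positions are used as deposited, and whether they count from 0 or 1 is not stated, so the capitals are exact to 1 base.
Satb1, chr17:51812040-51812094, minus strand: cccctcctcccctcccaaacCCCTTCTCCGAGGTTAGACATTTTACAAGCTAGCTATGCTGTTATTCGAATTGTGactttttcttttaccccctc
Ccser2, chr14:36941240-36941269, minus strand: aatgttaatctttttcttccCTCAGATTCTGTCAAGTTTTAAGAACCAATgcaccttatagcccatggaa
Zbtb38, chr9:96731775-96731819, minus strand: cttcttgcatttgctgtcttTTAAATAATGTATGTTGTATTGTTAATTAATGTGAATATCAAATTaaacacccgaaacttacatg
Fbxw7, chr3:84952000-84952034, plus strand: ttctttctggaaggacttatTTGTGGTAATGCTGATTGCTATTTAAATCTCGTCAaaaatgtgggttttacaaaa
Dip2b, chr15:100154150-100154299, plus strand: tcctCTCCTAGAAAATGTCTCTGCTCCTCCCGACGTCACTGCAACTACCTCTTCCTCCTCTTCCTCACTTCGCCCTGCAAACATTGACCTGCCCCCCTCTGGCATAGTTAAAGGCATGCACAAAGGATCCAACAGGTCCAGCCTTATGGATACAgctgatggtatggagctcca
Slc4a7, chr14:14718630-14718674, plus strand: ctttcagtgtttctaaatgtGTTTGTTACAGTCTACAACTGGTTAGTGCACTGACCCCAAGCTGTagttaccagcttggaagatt

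In Satb1, a chromatin organiser of lymphocytes, the printed stretch had a difference of 0.55 and a score of 37.5. It lay 21.2 kb inside the gene and 13 nt upstream of an internal start, counted from its midpoint. The stretches of Ccser2 (0.29), Zbtb38 (0.37), Fbxw7 (0.29) and Slc4a7 (0.38) were also in the positive state, and that of Dip2b was in the negative state (-0.28). Their base composition ranged from 15.6% G and C in Zbtb38 to 52.0% in Dip2b, and all the regions inside windows together held 46.1%.

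The regions were short and lay in small groups. Their median width was 55 nt, the middle 50% lay between 35 and 95 nt, and the widest had 895 nt. They formed 154764 clusters of adjoining bins with a mean of 2.38 regions, and 42.1% of the clusters were a single region. Of the clusters, 36.4% held no difference, 48.3% held only negative differences, 6.25% only positive ones, and 13934 clusters held both. Within clusters a negative region never adjoined a positive one: all 213522 adjoining pairs joined a region without a difference to one with a difference, a negative one in 72.6% and a positive one in 27.4%.

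The longest clusters lay in highly covered genes. Mef2c, a transcription factor acting after B cell receptor signals, had the longest, a run of 13785 nt with 245 regions, of which 44 were negative, 123 without a difference and 78 positive. It also had others of 122 and 107 regions. Fbxw7, the substrate receptor of a ubiquitin ligase, had a cluster of 114 regions with 36 negative and 21 positive. Etnk1, an ethanolamine kinase, had one of 98 with 15 negative and 34 positive, and Mdm4, an inhibitor of p53, one of 88 with 11 negative and 33 positive. Both signs thus occurred within single unbroken runs of the same gene.

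A small share of the host genes held most of the regions. The median host held 10 regions, 480 hosts held 1, 833 held at least 100, and 195 hosts together held 50% of all. Together the regions covered 4.02% of the 667.7 Mb of interior sequence in long coding genes, and 3.54% of them also overlay a gene on the opposite strand. Immp2l, which encodes a mitochondrial inner membrane peptidase, held the most, 4403 regions. It was followed by Aff3, a nuclear factor of lymphoid cells (3948), Kcnq5, a potassium channel (3549), Prkca, a protein kinase C (3054), and Snx29, a sorting nexin (2771). The next were Lpp (2691), Foxn3 (2552), Setbp1 (2419), Ebf1, a transcription factor that sets B cell identity (2415), and Exoc4 of the exocyst (2367).

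Per length, other genes led. Rap1a, a small GTPase of cell adhesion, had 1321 regions per 100 kb of interior and Mef2c 1311 per 100 kb, with 92.6% and 89.2% of their interiors covered. Fbxw7 (1186), Sh3bp5 (1185), Bcl11a, a transcription factor of early B cells (1171), Clcn3 (1136), Fchsd2 (1130), Man1a (1107), Zfp608 (1081) and Foxo1 (1079) completed the 10 densest with at least 20 regions. In all 10 at least 79.7% of the interior lay in regions.

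**Figure D1:**
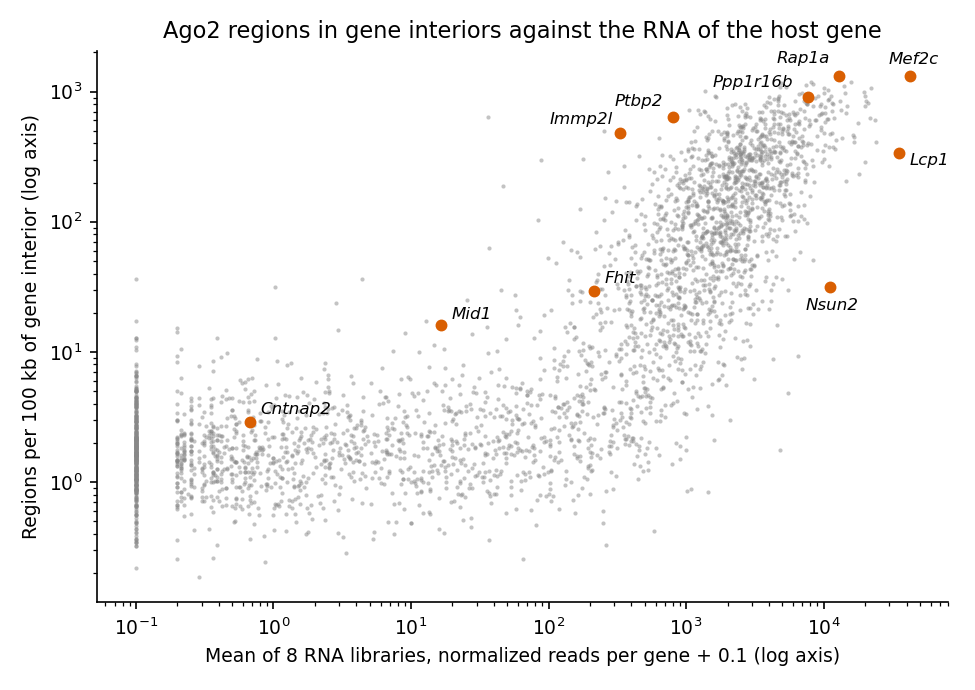
Regions per 100 kb of gene interior (vertical, log axis) against the mean normalized RNA reads of the gene plus 0.1 (horizontal, log axis), 1 point for each of the 3337 host genes. Density lies near 1 per 100 kb in genes with little RNA and rises above about 100 reads, with Immp2l (483.1) and Ptbp2 (638.6) high for their RNA and Nsun2 (31.7) low.

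Density followed the RNA level of the host gene. RNA is given here as normalized reads per gene, averaged over the 8 libraries and not divided by length. Over the 3927 long coding genes, the Spearman rank correlation between this level and regions per 100 kb was 0.78. This is a description across genes, which share the same libraries. The 508 genes with no RNA reads had a median of 1.22 regions per 100 kb, and genes with up to 10 reads and with 10 to 100 reads had medians of 1.27 and 1.59. The median was 11.4 at 100 to 1000 reads, 159.0 at 1000 to 10000, and 626.1 in the 50 genes over 10000. As for gene counts, 72.0% of genes without RNA reads still hosted at least 1 region, against 98.8% of those with 1000 to 10000 reads. Genes with 1000 to 10000 reads held 77.2% of all the regions and those above held 8.08%.

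Some genes stood apart from this relation; they were picked with their values in view. Immp2l had 330.2 normalized reads and 483.1 regions per 100 kb, against the median of 11.4 for its RNA class. Ptbp2, a neuronal splicing regulator, had 799.7 reads and 638.6 regions per 100 kb, and Lcor, a nuclear receptor corepressor, 250.7 reads and 501.7. On the other side, Nsun2, an RNA methyltransferase, had 11128 reads and only 31.7 regions per 100 kb. Hdlbp (204.3), Msn, the membrane-cytoskeleton linker moesin (234.2), and Lcp1, an actin-bundling protein (337.3), also lay below the median of the genes over 10000 reads. Regions over a second same-strand gene span were left out, while the interior kept its full length. How far this lowered the density of single genes was not tested.

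Regions were unevenly spread along the genes. In the same long genes, density was 322.5 per 100 kb in the last 1 kb before the annotated 3′ end, 59.1 between 8 and 9 kb from it and 58.2 between 10 and 11 kb. The values just inside and just outside the distance limit of 10 kb were thus alike on the 3′ side (58.2 and 58.6). On the 5′ side they were 107.3 and 108.1, after a peak of 134.8 between 1 and 2 kb, and density fell further to 82.8 between 48 and 64 kb from the 5′ end. With each interior cut into 10 equal stretches, the stretch nearest the 5′ end held 49426 regions (13.4%) and that nearest the 3′ end 23947. In genes over 4 times the 64 kb limit, 14.6% and 4.72% of the regions lay there. Beside the span limit, genes of 60 to 64 kb had 92.2 regions per 100 kb and genes of 64 to 68 kb had 108.1.

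**Figure D2:**
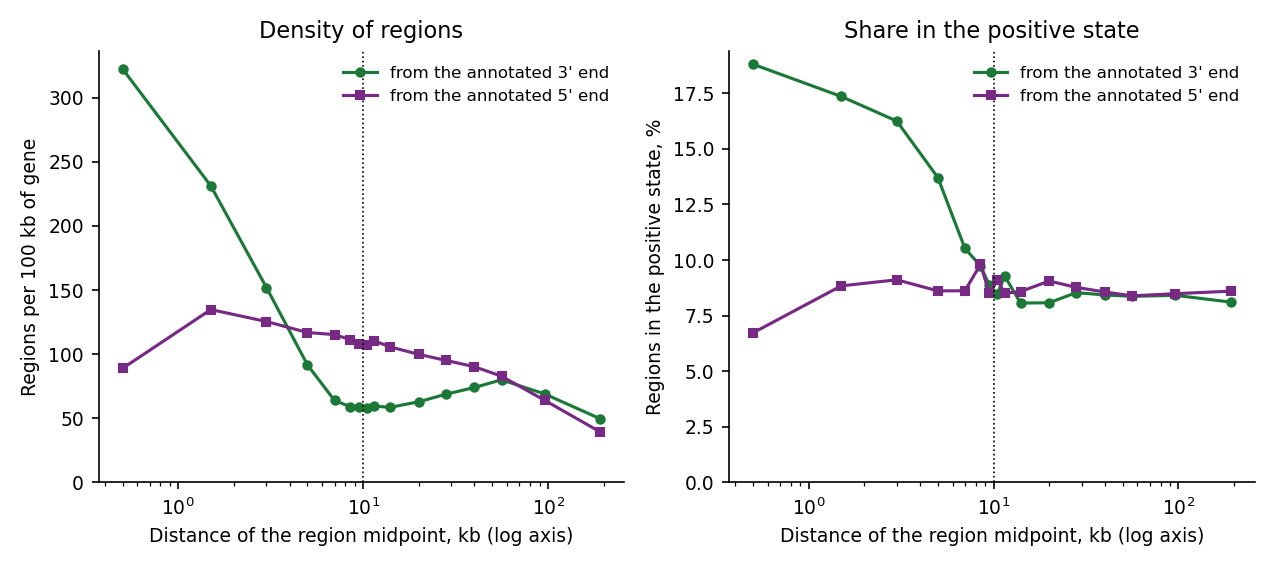
Regions per 100 kb of long coding gene (left) and share of regions in the positive state (right) by distance of the midpoint from each annotated end in kb (log axis). The dotted line marks the limit of 10 kb. From the 3′ end both fall steeply up to that line, density from 322.5 and the share from 18.8%, and from the 5′ end neither shows such a slope.

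Single genes had their own profiles of counted regions. A stretch with few or none can hold regions that the rule left out because a second same-strand gene lay there. Foxp1 had 1540 regions and none in the 4 stretches nearest its 5′ end. Its first region lay 265.5 kb from the annotated 5′ end, and the 6 stretches from there to the 3′ end held 167, 140, 254, 393, 399 and 187. Immp2l held 975 and 997 regions in stretches 2 and 3 and only 37 in stretch 7 and 23 in stretch 10. In Mdm4 stretch 8 held 10 regions, stretch 9 held 2 and stretch 10 none. Mef2c had regions along its whole interior from 20.6 kb on, between 67 and 252 per stretch. Ppp1r16b, a regulatory subunit of protein phosphatase 1, held 729 regions, 95 in stretch 1 and 39 in stretch 10.

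**Figure D3:**
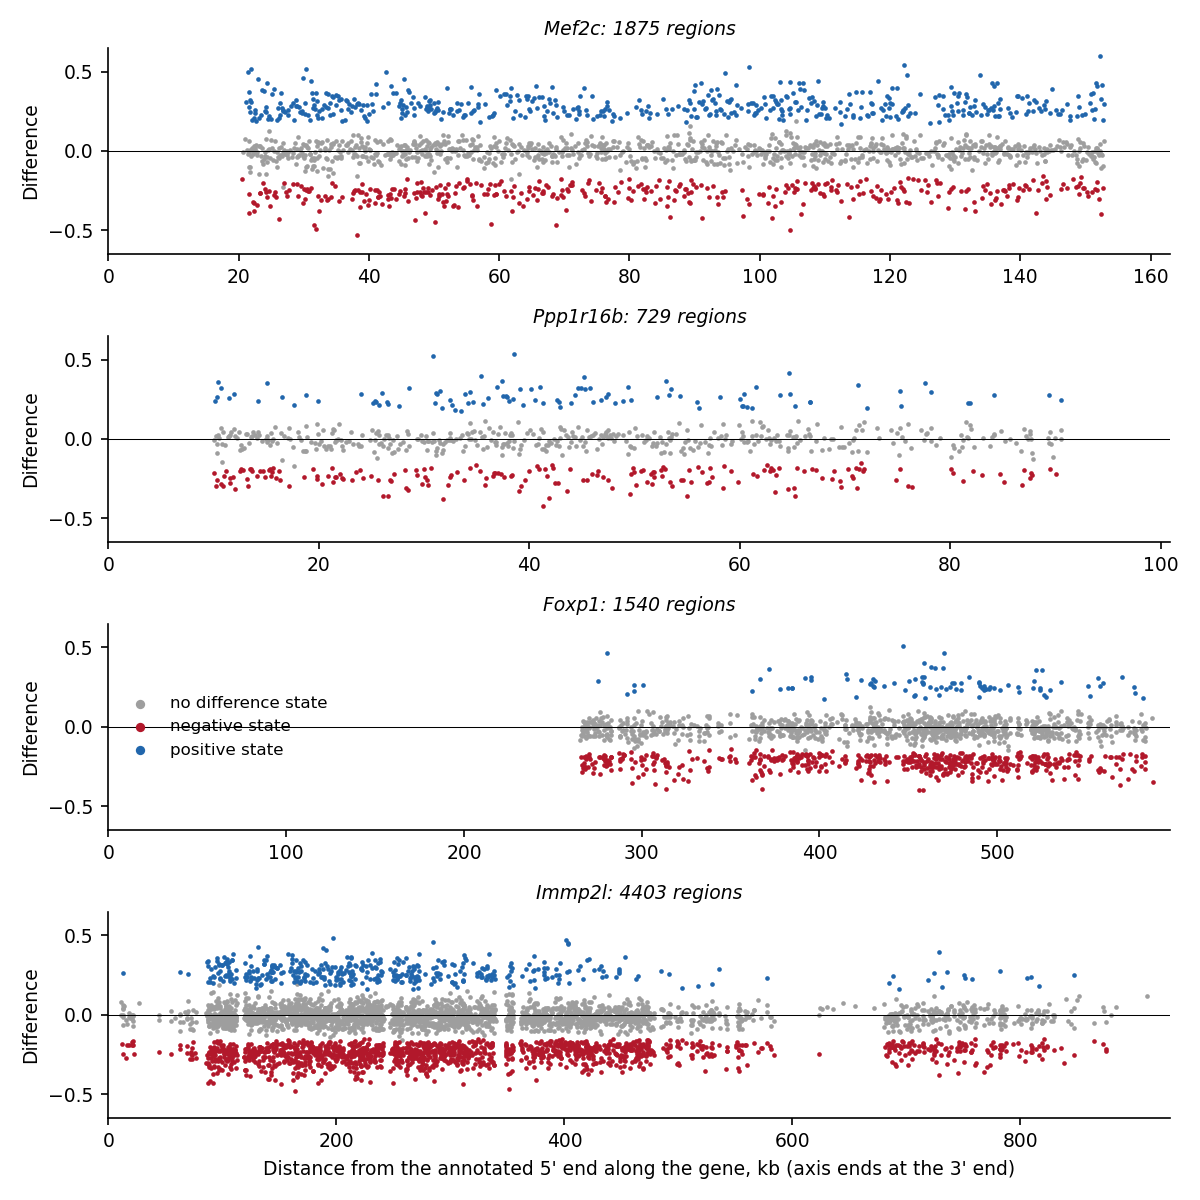
Difference of each region (vertical, no unit) against its distance from the annotated 5′ end in kb for Mef2c, Ppp1r16b, Foxp1 and Immp2l, coloured by state. Foxp1 has no counted region in the first 265.5 kb, Immp2l is dense in its 5′ part, and in Mef2c the 509 positive regions outnumber the 396 negative ones.

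In gene interiors negative differences outnumbered positive ones. Of the 368292 regions, 32.2% were in the negative state and 8.42% in the positive state, beside 33.1% and 9.29% of all kept regions in the series. The shares thus lay close to the background. The median difference was -0.22 in negative regions and 0.26 in positive ones. Positive regions had the higher scores, with a median of 5.9 against 1.9. With a score of at least 5, 30113 regions remained, of which 70.7% were positive. Which sign prevails in gene interiors thus turned with the score limit.

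Near the 3′ end of the same kind of gene, positive regions were more frequent. Within 10 kb of the annotated 3′ end, 28.1% of 50716 regions were negative and 15.5% positive, and within 10 kb of the 5′ end 32.6% and 8.71% of 45533. The positive share fell from 18.8% in the last 1 kb to 8.87% between 9 and 10 kb from the 3′ end and was 8.49% between 10 and 11 kb. In the 831 genes with at least 20 regions of both kinds, the positive share was higher near the 3′ end in 724 and higher deep in the gene in 105, with medians of 15.2% and 6.74%. Of the regions with a difference, at any score, 35.5% were positive near the 3′ end and 20.7% deep. Among regions with a score of at least 5, 71.6% were positive near the 3′ end and 70.7% deep. That limit removes every region without a difference and favours positive regions, whose scores were higher. The small contrast there is thus not on the base of the shares above. Density of regions moved with the positive share along this distance, and its part in the difference was not tested.

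**Figure D4:**
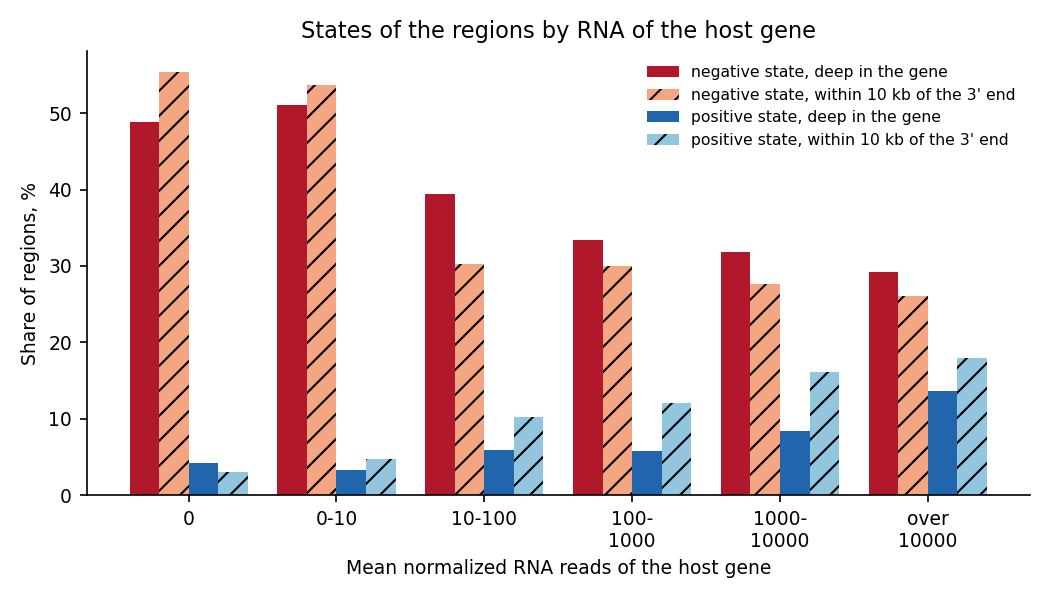
Share of regions in the negative and in the positive state, in %, by mean normalized RNA reads of the host gene, for regions deep in long coding genes (plain bars) and within 10 kb of the 3′ end (hatched). Deep in the gene, the negative share falls from 48.9% to 29.2% and the positive share rises from 4.28% to 13.7% between the lowest and the highest class.

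The balance of the states also moved with the RNA of the host. In hosts without RNA reads 48.9% of the regions were negative and 4.28% positive, and in hosts over 10000 reads 29.2% and 13.7%. The median difference went from -0.12 to -0.023 between these classes, and the median width from 30 to 55 nt. Within the upper RNA classes the positive share was higher near the 3′ end: 16.1% against 8.42% at 1000 to 10000 reads, and 18.0% against 13.7% above. In hosts without RNA reads, only 65 regions lay near the 3′ end.

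Host genes differed among themselves around these means. In the 833 hosts with at least 100 regions, the positive share of the regions with a difference ranged from 2.13% to 56.2%, with a median of 17.5%. Only 3 of them had more positive than negative regions, and they were looked up after this was seen. Mef2c had 509 positive and 396 negative, Slc4a7, a bicarbonate transporter, 196 and 165, and Mdm4 84 and 69. Their median differences were 0.0055, 0.0048 and 0.0037, close to 0. Etnk1 (62 positive, 62 negative) and Samsn1 (134 and 146) came next. Aff3 had 694 positive and 1002 negative and Dock10, a guanine nucleotide exchange factor, 391 and 628, whereas Foxp1 (93 and 539), Exoc4 (144 and 799) and Lpp (182 and 912) were mostly negative.

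The regions with the highest scores formed a class of their own. Of 31 regions with a score of at least 100, in 19 hosts and 22 clusters, 29 were negative and 2 positive. Of these 31, 12 (38.7%) lay in 8 hosts with a mean below 10 RNA reads, while only 1.61% of all the regions lay in such hosts. The highest score, 677.4, belonged to a region of 200 nt in Cmss1 (chr16:57391480-57391679) with a difference of -0.25. It lay in a run with scores of 528.8 and 430.6 beside it, and Cmss1 there overlies Filip1l on the opposite strand. Camk1d, a calmodulin-dependent kinase, followed with 573.7, and Cdk8, a kinase of the Mediator complex, with 509.8 and 505.4.

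Other hosts of such regions had almost no RNA. Il31ra, a cytokine receptor subunit, had regions with scores of 448.5 and 340.6, and its RNA was 7.4 normalized reads in KO 1 and 0 in the other 7 libraries. Kcnip1, a potassium channel partner, had scores of 414.4 and 396.6 with at most 1.3 reads in any library. Gphn (406.5) and Ica1 (336.0), with means of 1896 and 58.9 reads, completed the 12 highest. All 12 were negative, with differences between -0.21 and -0.26, so their scores were not matched by large differences.

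The largest differences lay elsewhere, among regions of modest score. Among the regions in the top 10% of scores, the most negative was in Myh11, smooth muscle myosin (-0.71, score 13.3). It was followed by Skap1, a T cell adaptor (-0.67), March1, which turns over MHC class II (-0.67), Tpd52l1 (-0.66), Bsn (-0.65) and Fgfr2 (-0.61). RNA of these hosts was low: Myh11 had at most 4.4 reads in a library, Fgfr2 had 0 in all 8, and March1 had the highest mean, 183.5. The most positive lay in expressed genes: Hdac8, a histone deacetylase (0.68, score 14.6), Plcg2, the phospholipase of B cell receptor signalling (0.64, score 12.3), Mef2c (0.60), Rap1a (0.58) and Prkca (0.57). The Hdac8 region also overlies a gene on the opposite strand. Hdac8 had a mean of 587 reads and the other 4 between 4636 and 42079. The Plcg2 region lies at chr8:117563025-117563089, 64.8 kb from the 5′ end of the gene, and the Mef2c region 10.8 kb from its 3′ end.

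Small RNA genes accounted for few of the counted regions. The rule left out regions over a second annotated gene on the same strand, so these counts do not measure small RNA genes in gene interiors. Counting RefSeq features under 400 nt, regions overlapped 22 pseudogenes, 8 snRNA, 6 snoRNA, 5 tRNA, 3 miRNA and 2 guide RNA features. The table gives no strand for them. The highest-scoring positive region, in Nfib (163.2, difference 0.27), overlies the histidine tRNA gene n-THgtg10, and a negative region in Trim2 (99.5) overlies the glycine tRNA gene n-TGgcc9. Nfib RNA was at most 1.0 read in any library. The next positive regions by score, picked after their values were seen, lay in Myo3a (100.8), Cradd (95.1), Etnk1 (94.8), Itsn2 (93.0) and Cntn4 (92.3), and no such feature overlapped them. In Ddah1 the ribosomal protein pseudogene Rpl36a-ps2 carried negative regions with scores of 26.8 and 16.8 and a positive one of 23.0, which lay 5′ of both.

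Gene groups differed in how many regions they carried. Of 49 B lineage and lymphoid transcription factors, 42 were long coding genes and all 42 were hosts, with 27557 regions and a median of 367.7 per 100 kb. Aff3, Ebf1, Mef2c, Foxp1 (1540) and Bach2 (1537) led them. In this group 12.6% of the regions were positive and 30.0% negative, beside 8.42% and 32.2% of all interior regions. The positive share was uneven among these 5 genes. It was 694 of 3948 regions in Aff3, 509 of 1875 in Mef2c and 353 of 2415 in Ebf1. In Foxp1 it was 93 of 1540 and in Bach2 113 of 1537. Of 56 genes of B cell receptor, kinase and calcium signalling, 42 were hosts with a median of 153.1 per 100 kb, led by Prkca, Prkcb (1106), the exchange factor Vav2 (913) and Camk2d (859).

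Further groups ranged widely in density. The 46 long chromatin genes, led by the remodelling subunit Arid1b (2110 regions) and by Arid5b (1690), had a median of 283.6 per 100 kb, and the 31 long genes of the miRNA machinery and RNA-binding regulators one of 377.3. The second group was led by Msi2 (2031), Atxn1 (1245), the splicing regulator Mbnl1 (1125) and Tnrc6b (759), a partner of Argonaute proteins. Of the DOCK and other cytoskeletal regulators, 41 of 42 long genes were hosts, with a median of 56.8 per 100 kb, led by Dock10 (2342), Arhgap15 (2081) and Dock2 (1553). Class switching and repair genes had a median of 69.5 per 100 kb, with Rad51b, a recombination factor, holding 1507 of their 2582 regions.

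Long genes of neurons and muscle served as the contrast. All 55 long coding genes of that list were hosts, but with a median of 1.54 per 100 kb and 1461 regions in all. Fhit, a large tumour suppressor gene, held 464 of these, and Cntnap2 held 64 over its 2244857 nt. Here 45.4% of the regions were negative and 3.76% positive. The median RNA of this list was 0.28 normalized reads, against 2354 in the transcription factor list. Of 33 genes listed from the literature as targets of miR-221 and miR-222, 14 were hosts. They held 5599 regions, led by Foxp1, Zeb2 (1031), Tcf12 (876), Arid1a (488) and Ets1 (390), of which 33.4% were negative and 8.07% positive, near the values of all interior regions.

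RNA-seq asked whether the host genes themselves differ between KO and Flox. Of the 2193 host genes tested, 2 passed an adjusted p of 0.05, both higher in KO (limma-trend on log2 normalized reads + 1, Benjamini-Hochberg over all 13091 genes), beside 0.0687% of all genes. At an unadjusted p under 0.05 there were 508 (23.2%), 455 higher and 53 lower, beside 15.1% of all genes. DESeq2 on whole reads recovered from the deposited values called 80 of 2087 hosts with an adjusted p (3.83%), 76 higher and 4 lower, beside 1.76% of all genes with one. edgeR called 2 of 2193 hosts, beside 9 of 13091 genes (0.0687%). In the authors' deposited table, 74 of 2102 hosts with an FDR had one under 0.05 (70 higher and 4 lower), against 191 of 12118 genes.

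The first of the called genes was Ppp1r16b, at chr2:158665398-158766334. Its normalized reads were 9839, 9496, 12474 and 10050 in the KO libraries (1 to 4) against 4875, 4684, 5003 and 5019 in the Flox libraries. All KO libraries lay above all Flox libraries. The log2 fold change on the log2(value + 1) scale was 1.09 (SE 0.094), with an adjusted p of 0.000373 by limma-trend, and it passed in all 8 fits with a library left out. Of its 729 regions 193 were negative and 103 positive, a positive share of the interior (14.1%) set beside 8.42% in all interior regions.

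The other was Mid1, a microtubule-associated ubiquitin ligase at chrX:169685199-170005736. It had 18, 33.9, 40.5 and 25 reads in KO and 3.8, 3.5, 3.5 and 4.1 in Flox. The groups did not overlap at these low levels, and the log2 fold change was 2.62 (SE 0.38, limma-trend adjusted p = 0.0376). The call held in only 1 of 8 fits with a library left out, with adjusted p up to 0.168, and was lost with replicate number as a block (adjusted p = 0.154). Mid1 carried 48 regions. The first lay alone, 150.5 kb from its annotated 5′ end, and the other 47 lay in the last of 10 equal stretches, nearest the 3′ end.

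No other host passed the threshold in limma-trend, and those with the lowest unadjusted p are given as values. Lyst, the lysosomal trafficking regulator, had 2015, 1605, 2665 and 1758 reads in KO and 1339, 1078, 961.1 and 866.8 in Flox (log2 fold change 0.91, adjusted p = 0.177). Pax5, the factor that commits cells to the B lineage, had 2985, 2709, 2688 and 2434 in KO and 2136, 1926, 1591 and 1650 in Flox (0.57, adjusted p = 0.205), with 1325 regions. In both genes every KO library lay above every Flox library, and DESeq2 called both (adjusted p = 0.000261 for Lyst and 0.00233 for Pax5).

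The remaining genes of this rule each carried fewer regions than Ppp1r16b, Lyst (535 regions) or Pax5. The log2 fold change was 1.30 for titin (Ttn), 0.51 for citron kinase (Cit) and 1.07 for ankyrin-G (Ank3), each with an adjusted p of 0.212 and with 4, 129 and 17 regions. Lower values in KO were led by Nol4l (-1.08), the cAMP-responsive factor Crem (-0.43), the CTP synthase Ctps2 (-0.38), the transporter Abcg2 (-0.63), Rap1gap (-0.51) and the receptor kinase Flt3 (-0.32), with adjusted p of 0.238 or 0.239. These 6 carried 4, 71, 25, 1, 3 and 6 regions. Crem had 3036, 3471, 2706 and 3582 reads in KO and 4076, 4667, 4413 and 4033 in Flox, without overlap. DESeq2 called Ttn, Cit, Ank3, Nol4l, Crem, Ctps2 and Abcg2 at an adjusted p of 0.05, but not Rap1gap or Flt3.

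**Figure D5:**
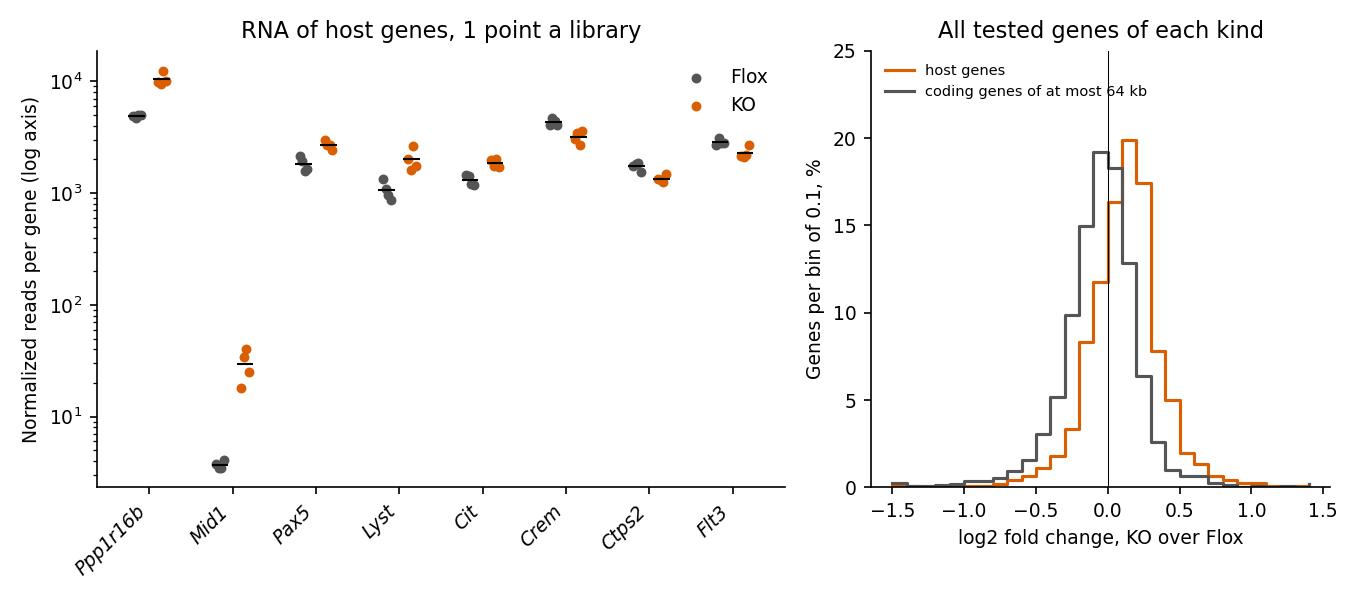
Left, normalized reads (log axis) of 8 host genes in each RNA library, 4 points per group with the mean as a line; right, share of tested genes per bin of log2 fold change (KO over Flox) for host genes and for coding genes with a span of at most 64 kb. In limma-trend only Ppp1r16b and Mid1 passed the adjusted threshold. In DESeq2 Ppp1r16b, Pax5, Lyst, Cit, Crem and Ctps2 passed it, Flt3 did not, and Mid1 had no adjusted p. The host distribution is shifted to the right, with medians of 0.13 and -0.032, and the host median is 0.020 with a span and GC correction.

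As a set, host genes lay slightly higher in KO. The median log2 fold change was 0.13 over the 2193 hosts, -0.0078 over all genes tested and -0.032 over coding genes of at most 64 kb, and 71.8% of hosts were above 0. Groups did not overlap in 245 hosts higher and 43 lower in KO, 13.1% of hosts, beside 7.97% of all genes. Over hosts by span, the median was 0.12 in 1296 hosts up to 2 times the 64 kb limit, 0.13 in 621 from there to 4 times the limit and 0.14 in 276 above. Over all tested long coding genes, hosts included, it was 0.12 (1440 genes), 0.13 (650) and 0.14 (278) in the same classes. Most of these genes are the hosts themselves, so the medians had to be alike. Long genes without a counted region were not compared alone. The host median fell to 0.020 when each library was corrected for gene span and GC content, a correction that by construction removes any shift that follows span. It was 0.056 without KO 1 and KO 3 and 0.083 without KO 3 alone. Whether span, base composition or single libraries set the shift was not tested further.

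In the gene groups the same tilt appeared, with 0 genes called by limma-trend or edgeR. Log2 fold changes were positive in 33 of 39 tested B lineage factors (median 0.25), in 42 of 46 chromatin genes (0.28), in 35 of 39 cytoskeletal regulators (0.22), in 25 of 28 miRNA machinery and RNA-binding genes (0.21) and in 36 of 42 signalling genes (0.15). Of the 14 tested literature targets 11 were positive (0.22), as were 12 of 15 class switching and repair genes (0.12) and 3 of 4 tested neuron and muscle genes (0.056). All of these stand beside the host median of 0.13. At an unadjusted p under 0.05 in limma-trend, beside 15.1% of all genes and 23.2% of hosts, there were 28 chromatin genes, 16 miRNA machinery and RNA-binding genes, 13 B lineage factors, 12 cytoskeletal regulators, 8 signalling genes, 4 literature targets and 0 of the last 2 groups. DESeq2, which called 1.76% of all genes and 3.83% of hosts, called 9 of 46 chromatin genes, all higher in KO, among them the acetyltransferases Crebbp and Ep300 and the methyltransferase Kmt2a. It also called Foxp1 and Pax5 of the B lineage factors, Ank3 and Daam1 of the cytoskeletal regulators and Arid1a and Foxp1 of the literature targets, all higher in KO, and 0 in the other groups. These genes were looked up after the calls were seen. Mef2c had 42712, 42085, 54334 and 43222 reads in KO and 41096, 40408, 36378 and 36397 in Flox, and KO 3 was its highest library.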

How the data were processed

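The members and gene lists were chosen with earlier results of these data known. Per the file headers, the deposited CLIP comparison gives a difference score and a state per 5-nt bin, and the deposited summary a score per region; the headers do not name the conditions, so 4 columns of tags and mutations were not used. The deposited RNA values are a signal, counts the authors scaled by a library size factor, from which whole reads were recovered (100% of values below 1000 reads whole within 0.1). The deposited table also gives the authors' log2 fold change and adjusted p-values (FDR); it names Flox WT. The submitters' processing notes list STAR, Bowtie2, cutadapt, SAMtools, DESeq and DESeq2 with no role or version, and the build mm9. Positions are used as GRCm38: 87.6% of 962084 kept regions lay in a same-strand gene span, against 7.69% on the opposite strand, and 616 regions on unplaced sequence or below position 3000000 were left out.

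Regions were matched to gene spans in Python (pandas 2.3.3). Libraries were compared with limma-trend (limma 3.58.1) on log2(value + 1), for the 13091 genes with a mean of at least 10, KO 4 against Flox 4, Benjamini-Hochberg at 0.05, two-sided; the p-values measure only the spread between these samples. edgeR 4.0.16, DESeq2 1.42.0, other filters, pseudocounts and scalings, library weights, a replicate block and leaving out libraries were alternatives. The fit was tested on simulated data. Named regions are the 12 with the highest score and, in the top 10% of scores, the 6 of each sign with the largest difference. Named hosts are the 10 with most regions, the 10 densest, those past the threshold, the 6 per direction with the lowest p at a mean of at least 50, and up to 5 per list; predicted genes are counted only, and some named by these rules are not reported here. Sequences come from RefSeq (GRCm38.p6).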

Additional observations from a re-analysis of the deposited data

Results flagged for a closer look

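In Flt3, the library KO 4 had 2691 normalized reads, while the other 3 KO libraries lay between 2107 and 2192. Its gap to the nearest of them was 0.855 of the group's whole range, above Dixon's critical value for 4 samples. Of the 26 groups examined this way it was the only such value, and chance alone gives about 1 in 20 groups.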

How the results depend on the processing

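Calls among host genes depended on the tool: DESeq2 on recovered reads called 80, library weights 5, and a pseudocount of 10, no filter, a mean of at least 50, a span over 2 times the limit of 64 kb, and KO 1 and KO 3 left out together called 1 each, against 2; leaving out a library gave 1 to 4. Same-numbered libraries did not deviate together (correlations -0.0943 to 0.00275); with replicate number as a block 2 hosts were called and the host median was 0.13, and Mid1 lost its call. Leaving out 1 library gave host medians of 0.083 to 0.16, and the span and GC correction 0.020. Region counts were 217240 at spans over 2 times the limit and 30113 at scores of at least 5. The share of regions with a positive difference, 33.7%, was 18.6% by length of the differential states, 70.7% at scores of at least 5 and 6.71% as 1 median per host. The positive share near the 3′ end minus that deep in the gene, 7.06 percentage points, was 7.67 at widths of at least 20 nt and 0.866 at scores of at least 5. Scores of at least 5 leave only regions with a difference. The span and GC correction, leaving out KO 1 and KO 3, and the settings of the last contrast were chosen after seeing the data. Of 232 values of the 13 RNA genes under the alternatives, none changed direction, 12 lost and 13 gained a call; Ppp1r16b kept its call in all 18. CLIP has no replicate values, and its depth was not used.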
